A study of Mus musculus with 13 samples.

Results

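The immediate early response genes measured here are 38 of the 18194 genes with a single symbol on the array, taken through every probe set of the deposited value table whose platform gene symbol was 1 of them and no other. They had 68 probe sets of the 45101 on the array. Of the 38, 37 genes passed the filter on low values, with 52 probe sets, and Trib1 did not. The set holds 7 genes of the AP1 family (Fos, Fosb, Fosl1, Fosl2, Jun, Junb and Jund), 3 EGR genes, 3 NR4A genes, 3 KLF genes, 4 DUSP genes and 18 others. They were measured in whole implantation sites, which hold the embryo and the maternal uterine tissue around it, on 13 Affymetrix Mouse430_2 arrays. All recipients were pseudopregnant ICR mice, given embryos on day 3. The embryos came from mice on day 4 of pregnancy and from Wistar rats on day 5. Sites were collected on day 9 and on day 7 in 3 kinds: sites of rat embryos in uteri that had also received mouse embryos (co-transfer rat sites), sites of rat embryos transferred alone (rat sites), and sites of mouse embryos transferred alone (mouse sites). Co-transfer rat sites of day 7 had 3 arrays, and each of the other 5 groups had 2. Nothing in the labels states that replicate arrays are different animals. The p-values therefore reflect the spread among these arrays alone, and that spread may be technical.

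Immediate early genes are transcribed within minutes of a stimulus, without new protein synthesis, when growth factor, stress or cytokine signals activate kinases that act on transcription factors already present in the cell. The factors include serum response factor with its partners of the ternary complex family, and CREB, which binds the cAMP response element. The products are mostly transcription factors (AP1, EGR, NR4A, KLF), together with inhibitors that switch the response off again, such as the DUSP phosphatases, which inactivate MAP kinases, and the ZFP36 proteins, which destabilise messenger RNAs. In the rodent uterus, Fos and Jun transcripts are known to be induced by oestrogen.

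Values are MAS5 signals on a linear scale, scaled by the submitters so that the trimmed mean of every array was 500, and array medians ran from 141.4 to 204.6. Changes are given on the log2(signal + 57.1) scale, on which changes of dim probe sets come out too small, and a gene was called at an adjusted p under 0.05 over all 22155 probe sets tested with limma. Each gene is represented by its tested probe set of highest mean signal unless another is named. The probes were designed for mouse transcripts, so a transcript of the rat embryo may be read poorly. The files' recorded hybridisation times put the rat and mouse sites of day 7 in 1 set of arrays, and the co-transfer rat and rat sites of day 9 in another. In every other comparison the set of arrays and the group cannot be told apart. Replicate 3 of the co-transfer rat sites of day 7 was hybridised by itself on another date and read on another scanner. The ratio of the 3' to the 5' Gapdh control signal, a sign of RNA quality, was 1.54 and 1.44 in the mouse sites of day 7, against 2.56 to 4.07 on the other arrays. The same ratio of the Actb control ran the other way, at 3.47 and 3.71 in those sites against 2.36 to 3.34 on the other arrays. The part of RNA quality in the results on those sites was not tested.

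By its median gene, the set was highest in the mouse sites of day 7 and in the rat sites of day 9. Taking each gene's log2 signal minus its mean over the 13 arrays, the median over the 37 genes was 0.09 and -0.11 in the co-transfer rat sites of day 9, 0.34 and 0.36 in the rat sites of day 9, and 0.06 and 0.07 in the mouse sites of day 9. On day 7 the median was -0.38, -0.30 and -0.25 in the co-transfer rat sites, -0.28 and -0.28 in the rat sites, and 0.54 and 0.47 in the mouse sites. Both mouse arrays of day 7 and both rat arrays of day 9 were above every other array, and the 2 kinds of rat site of day 7 overlapped. In whole sites, fewer cells of a type and less RNA per cell cannot be told apart. By gene, the highest group mean was in the mouse sites of day 7 for 18 genes, among them Fos, Egr1, Nr4a1, Dusp1, Ccn1 and Ccn2. It was in the rat sites of day 9 for 8 genes, and in the co-transfer rat sites of day 9 for 7 genes (Fosl2, Egr3, Ier5, Klf2, Klf6, Sik1 and Csrnp1). The lowest group mean was in the rat sites of day 9 for 6 genes (Fosl2, Jun, Zfp36, Klf2, Rhob and Sik1). It was in the mouse sites of day 7 for 5 genes (Egr3, Klf4, Myc, Csrnp1 and Per1).

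**Figure D1:**
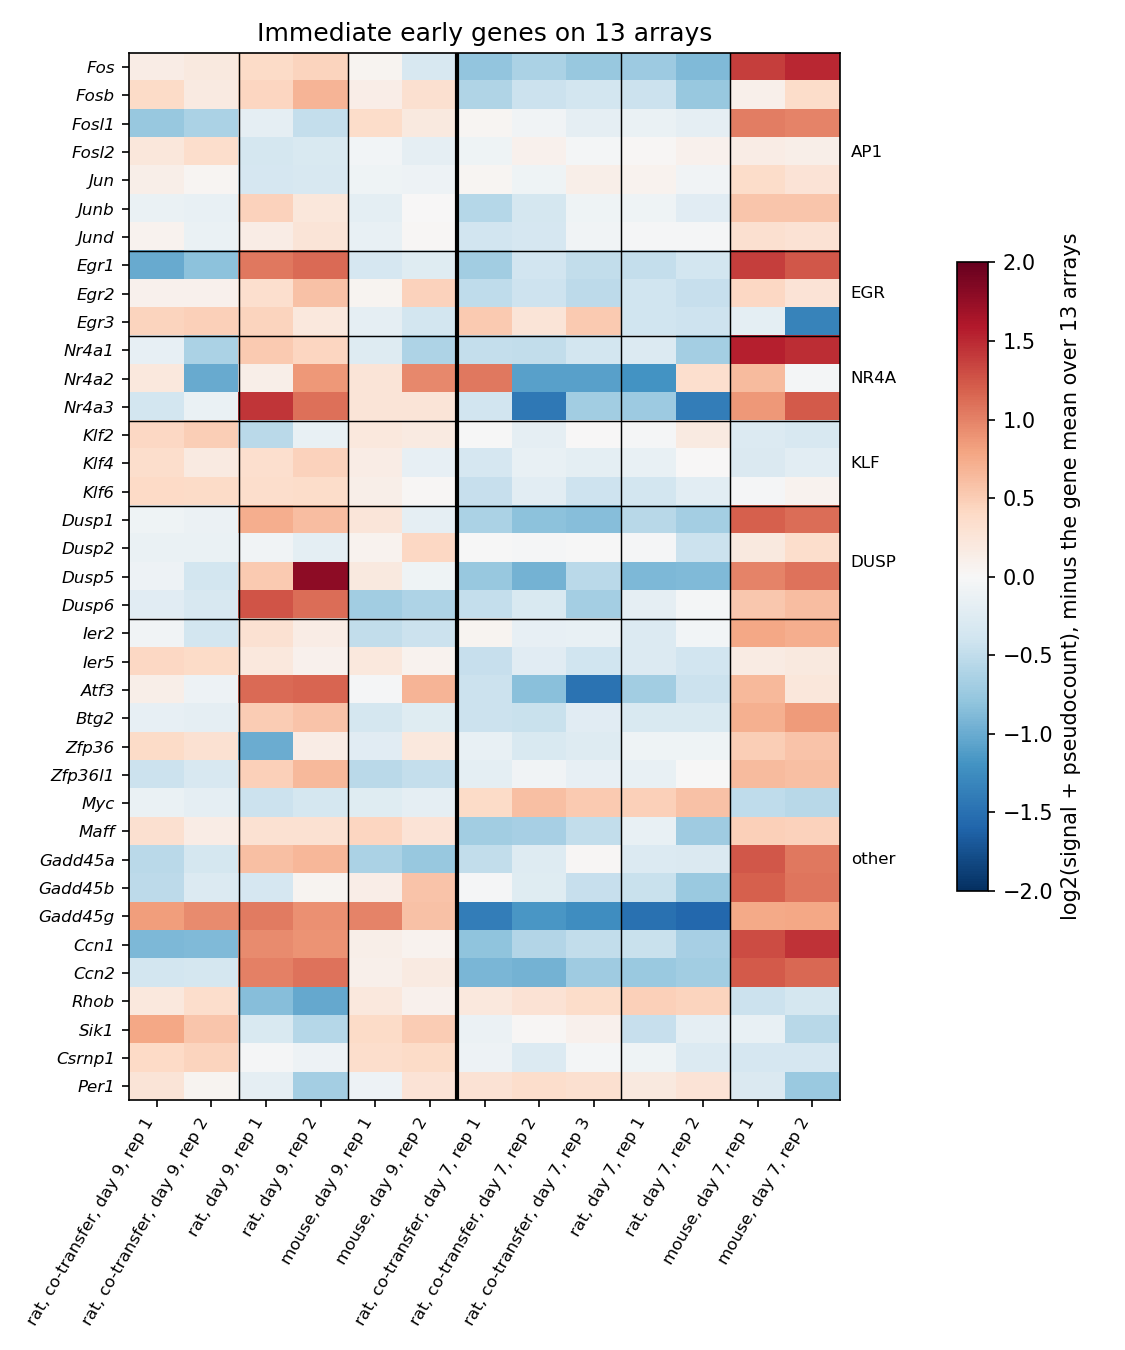
Each row is 1 of the 37 tested genes, grouped by family, and each column 1 array, with day 9 left of the thick line and day 7 right of it. Colour gives log2(signal + 57.1) minus the gene's mean over the 13 arrays, and red cells gather in the mouse sites of day 7 and in the rat sites of day 9.

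On day 7 both mouse arrays lay above all 5 arrays of rat sites for 28 of the 37 genes, against 22.8% of all tested genes. On day 9 both rat arrays lay above the other 4 arrays for 17 genes, against 27.3% of all tested genes. The same 17 genes met both conditions, which 10.4% of all tested genes did: Fos, Fosb, Junb, Jund, Egr1, Ier2, Atf3, Dusp1, Dusp5, Dusp6, Btg2, Zfp36l1, Nr4a1, Nr4a3, Gadd45a, Ccn1 and Ccn2. No array enters both conditions, but over all tested genes the conditions went together. Of the 2740 tested genes that met the first, 1246 also met the second, which 3273 of all 12010 did. A gene can pass the filter on low values through the groups where it is high. For dim members such as Dusp5 and Nr4a3 the filter favours such patterns. The KLF family has no member among the 17.

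Promoters of 30 of the 38 genes were found in the RefSeq table for GRCm38.p6, which gives 250 bases before and 50 bases after each gene's start. The letters TGACG, the core of the cAMP response element, stood on either strand in 18 of the 30 (60% of them), against 23% of 27025 genes. The full element TGACGTCA, which contains TGACG on both strands, stood in 3 (Dusp1, Btg2 and Maff, 10%), against 2.03% of all genes. TATAAA stood in 7 (23.3%), against 15.7%. A CArG box, the site of serum response factor, stood in 3 (Egr2, Dusp5 and Zfp36, 10%), against 1.81%, and an AP-1 site in 1 (Csrnp1, 3.33%), against 5.95%. The median GC content was 64.3% for the members and 52.8% for all genes. A match of letters is a description of these windows only. The promoters of 5 of the 17 genes named above are shown as examples of genes that met both conditions and whose windows hold such motifs. Others of the 17 hold them too, namely TGACG in Fosb, Junb, Atf3, Btg2 and Nr4a3 and TATAAA in Junb and Zfp36l1. The capitals mark TGACG or its reverse complement CGTCA, the full element TGACGTCA, TATAAA and the CArG boxes.
Fos, chr12:85473640-85473939, plus strand: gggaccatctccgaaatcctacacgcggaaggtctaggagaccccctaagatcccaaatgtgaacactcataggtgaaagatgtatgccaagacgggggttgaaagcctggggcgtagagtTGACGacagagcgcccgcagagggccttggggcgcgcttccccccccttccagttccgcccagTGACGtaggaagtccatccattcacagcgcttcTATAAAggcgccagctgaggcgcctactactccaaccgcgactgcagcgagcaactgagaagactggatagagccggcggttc
Nr4a1, chr15:101266596-101266895, plus strand: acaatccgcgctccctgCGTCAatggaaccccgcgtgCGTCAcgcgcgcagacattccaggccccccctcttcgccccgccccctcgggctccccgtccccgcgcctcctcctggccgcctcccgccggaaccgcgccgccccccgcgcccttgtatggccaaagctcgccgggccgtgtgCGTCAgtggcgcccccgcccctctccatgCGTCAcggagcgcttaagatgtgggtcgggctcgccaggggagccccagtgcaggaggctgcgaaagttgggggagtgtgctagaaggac
Dusp1, chr17:26508423-26508722, minus strand: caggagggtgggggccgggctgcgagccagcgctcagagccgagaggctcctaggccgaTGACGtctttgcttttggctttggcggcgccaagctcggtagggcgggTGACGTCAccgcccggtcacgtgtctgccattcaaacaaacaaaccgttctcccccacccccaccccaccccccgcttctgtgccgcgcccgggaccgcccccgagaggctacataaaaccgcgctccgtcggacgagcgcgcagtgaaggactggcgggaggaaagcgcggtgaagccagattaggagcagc
Dusp5, chr19:53528895-53529194, plus strand: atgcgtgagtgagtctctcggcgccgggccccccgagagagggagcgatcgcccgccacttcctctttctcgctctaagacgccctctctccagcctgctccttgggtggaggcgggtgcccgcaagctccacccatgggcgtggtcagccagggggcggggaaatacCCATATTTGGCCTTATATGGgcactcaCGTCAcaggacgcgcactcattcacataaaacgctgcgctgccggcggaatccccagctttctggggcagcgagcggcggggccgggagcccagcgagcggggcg
Ccn1, chr3:145649936-145650235, minus strand: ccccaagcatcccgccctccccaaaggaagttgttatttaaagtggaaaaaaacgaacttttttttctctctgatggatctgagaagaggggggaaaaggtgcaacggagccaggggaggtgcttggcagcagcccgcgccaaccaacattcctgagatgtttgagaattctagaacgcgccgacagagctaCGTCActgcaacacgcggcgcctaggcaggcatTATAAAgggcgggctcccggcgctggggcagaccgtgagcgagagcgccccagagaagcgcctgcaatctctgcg
In Fos the 2 TGACG motifs began 129 and 66 bases before the start and TATAAA 33 bases before it. Nr4a1 held 4 copies on the minus strand, and Dusp5 held 2 adjacent CArG boxes that began 82 and 72 bases before the start.

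The first comparison asked how the site of a rat embryo differed from that of a mouse embryo on day 7. Most of the set was lower in rat sites: 24 of the 37 genes fell and 3 (Myc, Rhob and Per1) rose, with 10 not called. Over all tested genes, 11.5% were called lower and 11.8% higher, so the share of members called higher (8.11%) was near the background. The median log2 change was -0.73 over the set and 0.02 over all tested genes. By family, 5 of 7 AP1 genes fell, 2 of 3 EGR genes, 2 of 3 NR4A genes, 4 of 4 DUSP genes and 11 of the 17 tested others, while 0 of 3 KLF genes were called in either direction. Changes of at least 2-fold made up 14 of the falls (Gadd45g, Fos, Nr4a3, Nr4a1, Ccn1, Dusp5, Ccn2, Dusp1, Egr1, Gadd45b, Gadd45a, Fosl1, Btg2 and Atf3) and 1 of the rises (Myc). These 2 groups were hybridised in 1 set, and a fit to their 4 arrays alone called 24 genes. Of the 27 calls, 21 held whichever array of the 2 groups was left out, and the adjusted p of the others then reached at most 0.241. Atf3 and Jun lost theirs without any 1 of the 4 arrays, Dusp2 and Per1 without any 1 of 3, and Junb and Ier5 without replicate 2 of the rat sites.

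Co-transfer rat sites of day 7 also had lower signals than mouse sites for most of the set. Lower signals were called for 25 genes and higher ones for 4 (Egr3, Myc, Rhob and Per1), against 15.2% and 14.7% of all tested genes, and the median log2 change was -0.83. The 10.8% of members called higher was near the background. Egr3 was called lower here by its other tested probe set (log2 change -2.54, SE 0.33, adjusted p = 0.000463). This comparison shares its mouse arrays with the one before, and each is given by its own values. Of its 29 calls, 24 held whichever array was left out, and the others reached an adjusted p of at most 0.169. Atf3 lost its call without replicate 1 of the mouse sites, Fosb, Klf6 and Per1 without replicate 2, and Jun without 4 of the 5 arrays. Set directly against rat sites of day 7, co-transfer rat sites had 0 of 37 genes called by limma in either direction, against 0.516% of all tested genes called higher and 0.408% called lower. The changes ran from -0.37 to 0.84, the smallest adjusted p was 0.177, and Egr3 and Dusp6 were the 2 genes at an unadjusted p under 0.05. The 95% interval of the difference reached 0.28 to either side in the median gene and 1.58 for Nr4a2. Changes within those bounds could not be seen, and as calls rest on the adjusted p, larger ones could also be missed. Egr3 was not called at 0.84 (95% interval 0.25 to 1.43, adjusted p = 0.185 by limma).

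On day 9 the difference between rat and mouse sites ran mostly the other way. Rat sites had higher signals of 14 genes and lower signals of 5 (Fosl1, Klf2, Rhob, Sik1 and Csrnp1), with 18 not called. Of all tested genes, 17.5% were called higher and 16.4% lower, so the share of members called lower was near the background. The median log2 change was 0.28 over the set and 0.03 over all tested genes. The genes called higher were Fos, Egr1, Ier2, Dusp1, Dusp5, Dusp6, Btg2, Zfp36l1, Nr4a1, Nr4a3, Klf4, Gadd45a, Ccn1 and Ccn2, of which 6 (Dusp6, Egr1, Gadd45a, Dusp5, Zfp36l1 and Nr4a3) were at least 2-fold higher. The fit to the 4 arrays of these groups alone called 12 genes. Of the 19 calls, 13 held whichever array was left out, and the others reached an adjusted p of at most 0.213. Klf4 lost its call without any 1 of 3 arrays and Nr4a3 without any 1 of the 4. Dusp5 lost it without either mouse array or replicate 2 of the rat sites, Fos and Csrnp1 without replicate 2 of the mouse or of the rat sites, and Klf2 without replicate 1 of either.

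**Figure D2:**
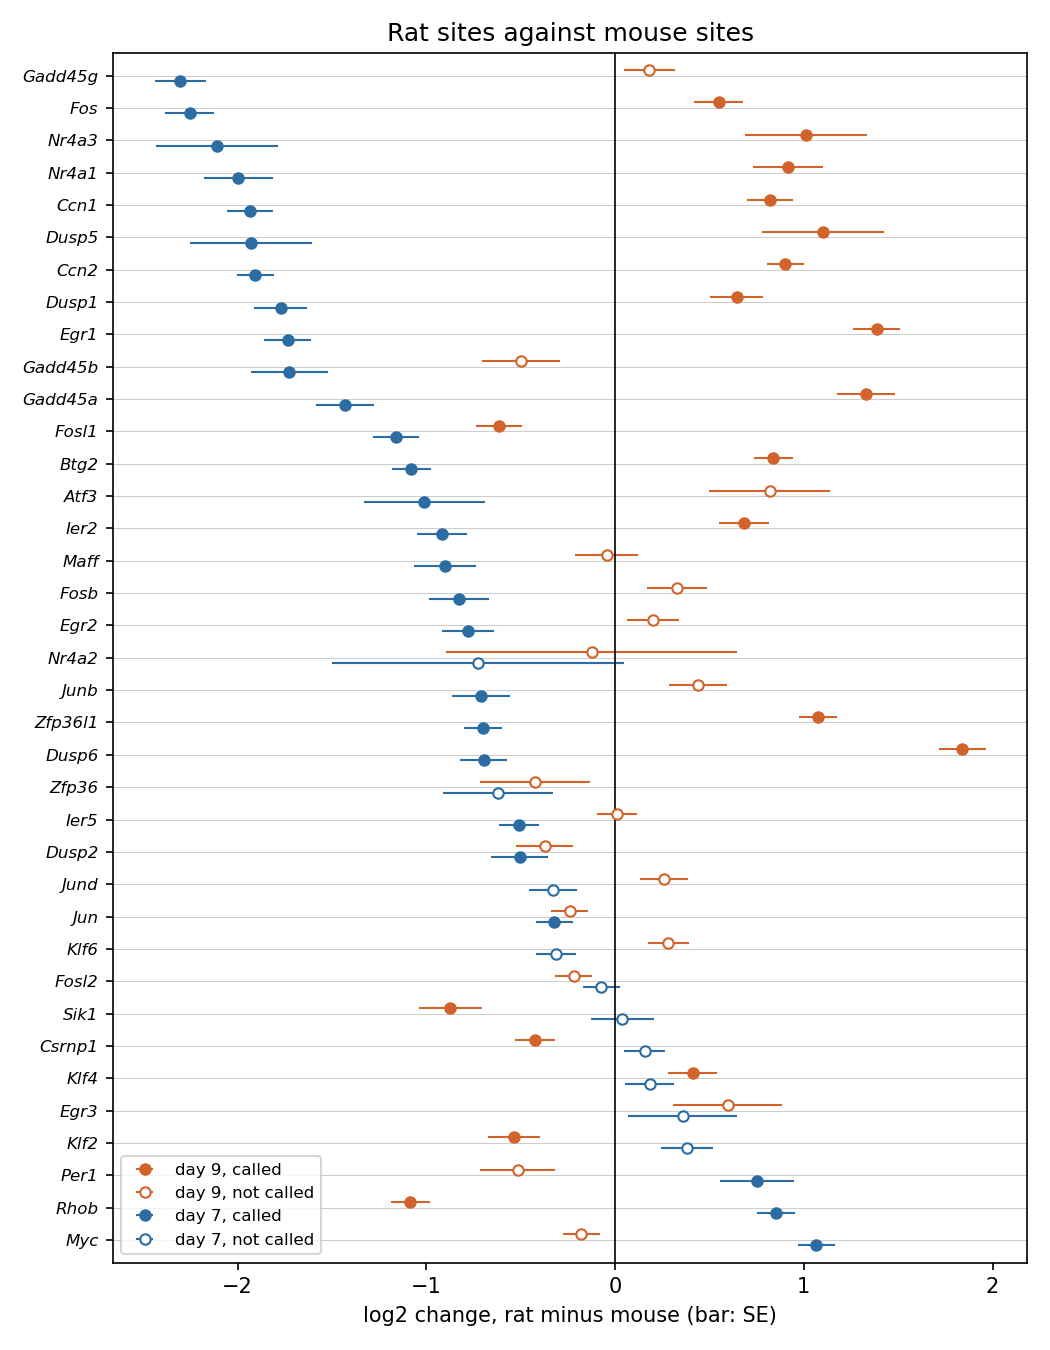
Log2 change of rat sites against mouse sites for each of the 37 genes, with the standard error as a bar, on day 9 in orange and day 7 in blue, ordered by the day 7 value. Filled points were called. Fos stood at 0.55 on day 9 and at -2.25 on day 7, and Rhob at -1.08 on day 9 and at 0.85 on day 7.

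The change of the rat against mouse difference between the days was tested directly, as the day 9 difference minus the day 7 difference. It was positive and called for 24 genes and negative for 6 (Klf2, Myc, Rhob, Sik1, Csrnp1 and Per1), against 17.1% and 17.4% of all tested genes, with a median of 0.98 on the log2 scale. The share of members called negative, 16.2%, was near the background. Egr3, Fosl2 and Jun were not called by their brightest probe sets. Their other tested probe sets were, at 4.04 (adjusted p = 0.000246), 1.47 (adjusted p = 0.00408) and 1.37 (adjusted p = 0.000961). Dimmer probe sets of the called genes Ier5 (0.44) and Klf6 (0.998) were not called. By the brightest probe sets, the change was at least 2-fold for 18 of the 24 and for 3 of the 6. By these it was largest in Egr1 (3.12, SE 0.17, adjusted p = 8.82e-07) and Nr4a3 (3.12, SE 0.46, adjusted p = 0.000588). Of these 30 calls, 23 held whichever array was left out.

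Mouse embryos in the same uterus went with lower signals in the rat site on day 9. Co-transfer rat sites had lower signals than rat sites for 15 genes and higher ones for 7 (Fosl2, Jun, Klf2, Rhob, Sik1, Csrnp1 and Per1), against 18.8% and 18.2% of all tested genes. The share of members called higher was near the background. The median log2 change was -0.25 over the set and -0.05 over all tested genes. The 8 genes that were at least 2-fold lower were Egr1, Ccn1, Nr4a3, Dusp6, Ccn2, Dusp5, Atf3 and Gadd45a, and Rhob and Sik1 were at least 2-fold higher. These groups were hybridised in 1 set, and the fit to their 4 arrays alone called 18 genes. Of the 22 calls, 15 held whichever array was left out, and the others reached an adjusted p of at most 0.264. The exceptions were Atf3 (any 1 of the 4 arrays), Fosl1, Junb, Ier2 and Per1 (any 1 of 3 arrays), Jun (replicate 1 of the co-transfer rat sites) and Dusp5 (replicate 2 of the co-transfer rat sites). The co-transfer difference itself changed with the day for 16 genes, as 11 were lower and 5 higher on day 9 than on day 7, against 13.7% and 14.9% of all tested genes. With no filter on low values, 11 genes were called in place of 16. The 13.5% of members that were higher was near the background.

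Against mouse sites of day 9, co-transfer rat sites had 5 genes called. Fosl1, Egr1, Ccn1 and Ccn2 were lower and Fosl2 was higher, against 4.13% and 4.38% of all tested genes called lower and higher, and the median log2 change was 0.06. Fosl1 and Ccn1 kept their calls whichever array was left out. The count fell to 2 without replicate 1 of the co-transfer rat sites or without replicate 2 of the mouse sites, and to 3 without replicate 2 of the co-transfer rat sites. The difference between co-transfer rat and mouse sites changed with the day for 24 genes, 22 upward and 2 (Myc and Rhob) downward, against 10.1% and 8.75% of all tested genes. With no filter on low values, 16 genes were called in place of 24. The downward share of the set, 5.41%, was below the background.

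**Figure D3:**
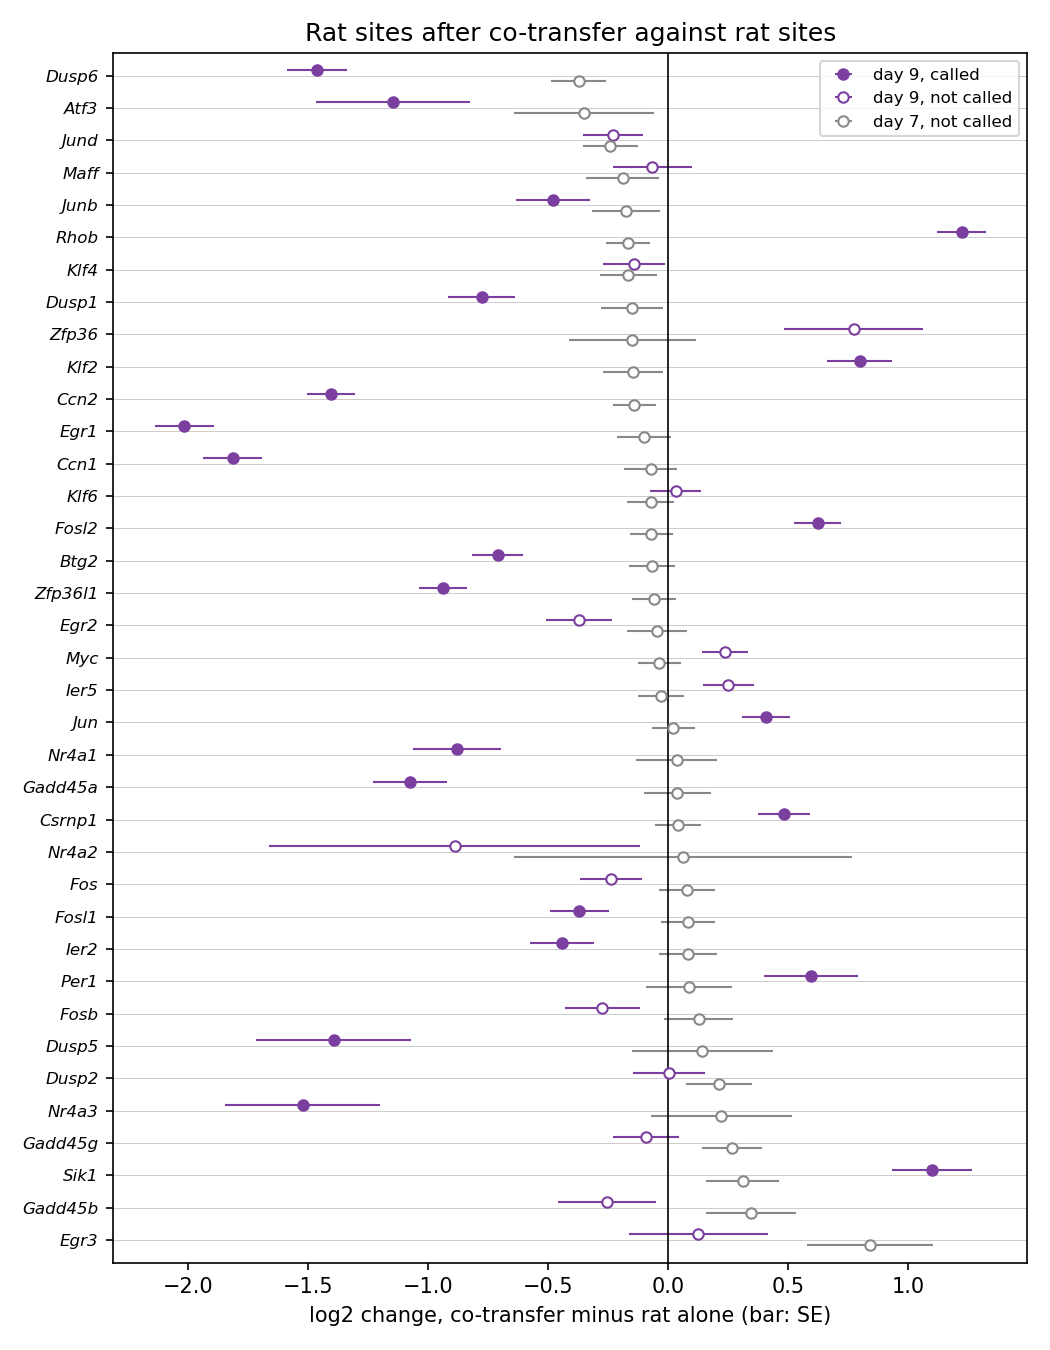
Log2 change of co-transfer rat sites against rat sites for each of the 37 genes, with the standard error as a bar, on day 9 in purple and day 7 in grey, ordered by the day 7 value. Filled points were called, and no point of day 7 was. The day 9 values ran from -2.01 for Egr1 to 1.22 for Rhob.

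Between the days the 3 kinds of site moved differently. In mouse sites of day 9, 17 genes were lower than on day 7 and 6 (Klf2, Myc, Rhob, Sik1, Csrnp1 and Per1) higher, against 23.9% and 20.5% of all tested genes, and the median log2 change was -0.37. In rat sites of day 9, 22 genes were higher than on day 7 and 6 (Fosl2, Jun, Klf2, Myc, Rhob and Per1) lower, against 19.9% and 22.4%, with a median of 0.65. In co-transfer rat sites of day 9, 15 genes were higher and 3 (Fosl1, Egr1 and Myc) lower than on day 7, against 12.4% and 15.5%, with a median of 0.23. All 3 KLF genes were among these 15, and Gadd45g was the 1 gene of the set that was at least 2-fold higher. Without replicate 1 of the co-transfer rat sites of day 9 this comparison had 11 calls in place of 18. Leaving out 1 array at a time, 16 of the 23 calls in mouse sites, 21 of the 28 in rat sites and 11 of the 18 in co-transfer rat sites held throughout. Members that rose in mouse sites (16.2%) or fell in rat sites (16.2%) were below the share of all genes. So were those that fell in co-transfer rat sites (8.11%).

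Summed signals of epithelial, smooth muscle and decidual markers moved with these groups, though not every marker did. The summed signal of 9 uterine epithelial markers (Epcam, Cdh1, Krt8, Krt18, Krt19, Muc1, Ltf, Lcn2 and Sprr2f) was 10968 to 11498 in co-transfer rat sites of day 9, 94658 to 97892 in rat sites of day 9 and 24179.7 to 24426 in mouse sites of day 9. On day 7 it was 11955 to 12449.7 in co-transfer rat sites, 12227 to 12333 in rat sites and 45081 to 45336 in mouse sites. All 9 were called higher in rat than in mouse sites on day 9, and 8 were called lower on day 7. Thus the 2 groups with the highest immediate early signals also had the highest epithelial signals. The sum of 6 smooth muscle markers was likewise highest in rat sites of day 9, at 70313 to 72432, and in mouse sites of day 7, at 66544 to 67362, against 48552.5 to 60005 in the other groups. Of the 6, 5 were called higher in rat than in mouse sites on day 9, and 2 lower and 0 higher on day 7 (median log2 change -0.10). Myh11 read 4872 and 4524 in rat sites and 3855 and 3824 in mouse sites of day 7. The sum of 8 decidual markers was lowest in rat sites of day 9, at 22475 to 23216, and in mouse sites of day 7, at 54179 to 55806, against 58469.5 to 87820 in the others. Prl8a2 set the order of the mouse sites, at 15284 and 15946 on day 7 and 23554 and 30689 on day 9. Wnt4 ran the other way, at 3838 and 3542 on day 7 and 982 and 931 on day 9. Of the 8 markers, 1 was called higher and 3 lower in mouse sites on day 9 than on day 7 (median log2 change -0.13). Alpl was highest in rat sites of day 9, at 1414 and 1491. Muc1 was below the pseudocount on both arrays of the co-transfer rat sites of day 9, and Prl3c1, a decidual prolactin family gene, read 89.2 and 9 in rat sites of day 9. Every other signal of these 3 lists was above it. The part of these tissues in the immediate early results was not tested.

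**Figure D4:**
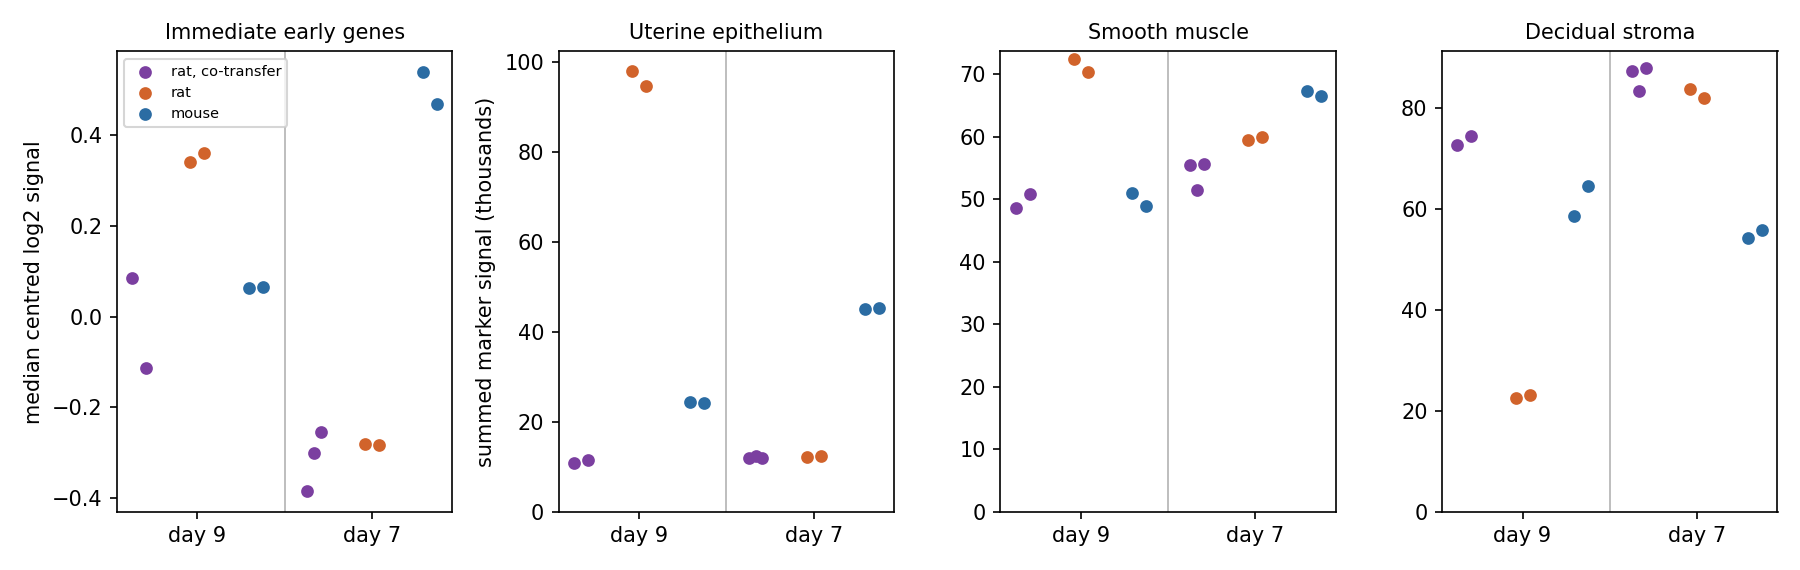
The left panel gives for each array the median over the 37 genes of the centred log2 signal, and the other panels the summed signal of the epithelial, smooth muscle and decidual markers divided by 1000, with day 9 left of the line and day 7 right of it. Rat sites of day 9 and mouse sites of day 7 were the upper groups in the first 3 panels and the lower ones in the fourth.

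The immune cell markers were mixed on day 9. Of 5 tested neutrophil markers, 3 were called higher and 1 lower in rat than in mouse sites of day 9 (median log2 change 1.11), and on day 7 4 were called lower and 0 higher (median log2 change -1.75). S100a9 read 2455 and 2380.4 in rat sites and 824.5 and 713 in mouse sites of day 9, and Il1b 1627 and 1586 in rat sites and 363 and 231.5 in mouse sites. S100a8, the brightest of the list, ran the other way on day 9, at 3312 and 3245 in rat sites and 20263 and 20834 in mouse sites, and set the sum of the list. That sum was 7992 to 8368 in rat sites of day 9 and 21906 to 22184 in mouse sites of day 9, and on day 7 it was 1620.2 to 1631 in rat sites and 6651 to 7053 in mouse sites. Of 5 macrophage markers, 1 was called higher and 3 lower in rat than in mouse sites on day 9, and 0 higher and 2 lower on day 7. Their sum was 14149 to 15919 in rat sites and 17936 to 18235 in mouse sites of day 9, and 7955 to 8317 in rat sites and 12196 to 12199 in mouse sites of day 7. All 5 natural killer cell markers were called lower in rat than in mouse sites on day 9, and 3 on day 7. Their sum was 10513 to 10596 in rat sites and 27259 to 29014 in mouse sites of day 9, and 7373 to 7498 in rat sites and 9747 to 9934 in mouse sites of day 7. Trophoblast markers summed to 20851 to 23869 in mouse sites of day 9 and to at most 1343 in every other group. Visceral endoderm and yolk sac markers summed to 18148 to 18225 in mouse sites of day 9 and to at most 871 elsewhere, with Apoa4 below the pseudocount in the other 5 groups. Both lists mark tissues of the embryo, and the mouse probes may read transcripts of a rat embryo poorly. The sums therefore do not show how much of these tissues the sites of rat embryos held.

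The AP1 family makes the dimeric transcription factor of the early response, in which a FOS protein pairs with a JUN protein. Fos, its best known inducible subunit, read on day 9 3103 and 3210.0 in co-transfer rat sites, 3639 and 3822 in rat sites, and 2883 and 2218 in mouse sites. On day 7 Fos read 1589, 1775 and 1627 in co-transfer rat sites, 1666 and 1479 in rat sites, and 7376 and 8047 in mouse sites. Both mouse arrays of day 7 were above every other array, and on day 9 the 3 groups did not overlap, with rat sites highest. Fos was higher in rat than in mouse sites on day 9 (log2 change 0.55, SE 0.13, adjusted p = 0.00918) and lower on day 7 (log2 change -2.25, SE 0.13, adjusted p = 5.16e-06). Co-transfer rat sites were not called against rat sites on day 9 (log2 change -0.24, SE 0.13, adjusted p = 0.191), although the arrays did not overlap.

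Fosb, which is close to Fos in sequence, read on day 9 250.5 and 208 in co-transfer rat sites, 259.7 and 319 in rat sites, and 202 and 235 in mouse sites. On day 7 Fosb read 98.1, 117 and 125 in co-transfer rat sites, 118 and 81.8 in rat sites, and 196 and 245 in mouse sites. Its rat arrays of day 9 were just above the others, with a log2 change against mouse sites of 0.33 that was not called, and it was lower in rat than in mouse sites on day 7 (log2 change -0.83, SE 0.16, adjusted p = 0.00445). Junb, a JUN subunit often induced with Fos, read on day 9 392 and 387 in co-transfer rat sites, 616 and 519 in rat sites, and 372 and 436 in mouse sites. On day 7 Junb read 274, 330.0 and 408 in co-transfer rat sites, 405 and 364 in rat sites, and 661 and 666 in mouse sites. Rat against mouse sites of day 9 missed the threshold (log2 change 0.44, SE 0.15, adjusted p = 0.0551), while Junb was lower in co-transfer rat than in rat sites on day 9 (log2 change -0.48, SE 0.15, adjusted p = 0.0367) and lower in rat than in mouse sites on day 7 (log2 change -0.71, SE 0.15, adjusted p = 0.00864).

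Fosl1, the FOS-related subunit also called FRA1, did not share the day 9 pattern. On day 9 Fosl1 read 399 and 438 in co-transfer rat sites, 622 and 498 in rat sites, and 942 and 830.3 in mouse sites. On day 7 Fosl1 read 733, 682 and 625 in co-transfer rat sites, 648 and 627 in rat sites, and 1511 and 1479 in mouse sites. The day 9 groups did not overlap, with mouse sites highest. Fosl1 was therefore lower in rat than in mouse sites on both days, with log2 change -0.62, SE 0.12, adjusted p = 0.00354 on day 9 and -1.16, SE 0.12, adjusted p = 0.000157 on day 7. It was also lower in co-transfer rat than in mouse sites on day 9 (log2 change -0.99, SE 0.12, adjusted p = 0.00104).

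Fosl2 and Jun ran against Fos on day 9. Fosl2, the subunit also called FRA2, read on day 9 8402 and 9152 in co-transfer rat sites, 5583 and 5766 in rat sites, and 6936 and 6311 in mouse sites. On day 7 Fosl2 read 6723, 7649 and 6948 in co-transfer rat sites, 7280.1 and 7625 in rat sites, and 7935 and 7747 in mouse sites. Jun read on day 9 1912 and 1817 in co-transfer rat sites, 1384 and 1397 in rat sites, and 1660.0 and 1647 in mouse sites. In both genes the rat arrays of day 9 were the lowest and those of the co-transfer rat sites the highest, with no overlap. The co-transfer difference on day 9 was 0.62 for Fosl2 (SE 0.10, adjusted p = 0.000878) and 0.41 for Jun (SE 0.10, adjusted p = 0.0101). On day 7 Jun read 1806, 1651 and 1907 in co-transfer rat sites, 1854 and 1666 in rat sites, and 2288 and 2135 in mouse sites. Second probe sets of both genes behaved otherwise. The dimmer Fosl2 probe set was lower in rat than in mouse sites on day 7 (log2 change -1.02, SE 0.21, adjusted p = 0.00669), where the brightest probe set was at -0.07. Its co-transfer difference on day 9 was of the opposite sign and not called (log2 change -0.58, SE 0.21, adjusted p = 0.0585), and so was its difference from mouse sites of that day (-0.13, against 0.40 for the brightest). Day 9 against day 7 also had opposite signs, at -0.24 against 0.30 for the brightest in co-transfer rat sites and 0.27 against -0.39 in rat sites. The other Jun probe set was at -0.996 on day 7 (SE 0.15, adjusted p = 0.00141), against -0.32 for the brightest one, and gave no called co-transfer difference on day 9 (-0.07). The files do not say which transcripts each probe set reads.

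Jund encodes a JUN subunit that is present before stimulation in many cells. On day 9 Jund read 5437 and 4723 in co-transfer rat sites, 5742 and 6174 in rat sites, and 4680.3 and 5260.0 in mouse sites. On day 7 Jund read 3956, 4103 and 4938 in co-transfer rat sites, 5088 and 5119.7 in rat sites, and 6512 and 6337 in mouse sites. Rat against mouse sites gave 0.26 on day 9 and -0.33 on day 7, neither of which was called, while the change between those differences was called (log2 change 0.59, SE 0.18, adjusted p = 0.029).

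The EGR genes encode zinc finger transcription factors. Egr1 was highest in the mouse sites of day 7, followed by the rat sites of day 9. On day 9 Egr1 read 952 and 1096 in co-transfer rat sites, 4191 and 4415 in rat sites, and 1551 and 1673 in mouse sites. On day 7 Egr1 read 1207, 1514 and 1394 in co-transfer rat sites, 1412 and 1526 in rat sites, and 5266 and 4781 in mouse sites. The 3 groups of day 9 did not overlap, with rat sites highest and co-transfer rat sites lowest, and on day 7 the mouse arrays stood above the 5 others. Egr1 was higher in rat than in mouse sites on day 9 (log2 change 1.39, SE 0.12, adjusted p = 1.97e-05) and lower on day 7 (log2 change -1.73, SE 0.12, adjusted p = 1.72e-05). On day 9 it was lower in co-transfer rat sites than in rat sites (log2 change -2.01, SE 0.12, adjusted p = 1.4e-06) and than in mouse sites of that day (log2 change -0.63, SE 0.12, adjusted p = 0.014). The last of these calls was lost without replicate 1 of the co-transfer rat sites or replicate 2 of the mouse sites.

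Egr2 read on day 9 294 and 295 in co-transfer rat sites, 359 and 440.1 in rat sites, and 288 and 396 in mouse sites. On day 7 Egr2 read 176, 189.7 and 174 in co-transfer rat sites, 194 and 182 in rat sites, and 385 and 344 in mouse sites. Its groups of day 9 overlapped and the rat against mouse change of 0.20 was not called, and in rat sites of day 7 it was below mouse sites of that day (log2 change -0.78, SE 0.14, adjusted p = 0.00293). For Egr3 the 2 tested probe sets disagreed. The brightest read on day 7 404, 324 and 404 in co-transfer rat sites, 186 and 184 in rat sites, and 224 and 69.4 in mouse sites, with the mouse arrays far apart. The other one read on day 7 23.5, 60.4 and 102 in co-transfer rat sites, 100.5 and 15.1 in rat sites, and 638 and 581 in mouse sites. That second one read on day 9 80.5 and 62.5 in co-transfer rat sites, 279 and 208 in rat sites, and 67.8 and 45.2 in mouse sites. By the brightest the rat against mouse difference of day 9 was 0.60 and not called, and by the other it was 1.40 (SE 0.37, adjusted p = 0.0157). For day 7 the 2 probe sets gave 0.36, not called, and -2.64 (SE 0.37, adjusted p = 0.000798). In co-transfer rat sites of day 7 against mouse sites of that day, the brightest was called higher (log2 change 1.20, SE 0.26, adjusted p = 0.00745) and the other lower (log2 change -2.54, SE 0.33, adjusted p = 0.000463). In co-transfer rat against rat sites of day 9 the brightest was at 0.13, not called, and the other was called lower (log2 change -1.22, SE 0.37, adjusted p = 0.0281). The second probe set was thus highest in the same 2 groups as Egr1, and its signals outside the mouse sites of day 7 and the rat sites of day 9 were between 15.1 and 102.4, near the pseudocount. The brightest probe set read on day 9 377 and 387 in co-transfer rat sites, 378 and 315 in rat sites, and 226 and 192 in mouse sites.

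The NR4A genes encode orphan nuclear receptors that act without a known hormone ligand. Nr4a1, also called NUR77, read on day 9 786 and 551 in co-transfer rat sites, 1299 and 1219.7 in rat sites, and 732 and 559.6 in mouse sites. On day 7 Nr4a1 read 625, 616 and 681 in co-transfer rat sites, 725 and 533 in rat sites, and 2728 and 2578 in mouse sites. The mouse arrays of day 7 were above all others, and the rat arrays of day 9 above the other 4 of their day. Nr4a1 was higher in rat than in mouse sites on day 9 (log2 change 0.92, SE 0.18, adjusted p = 0.00404), lower on day 7 (log2 change -1.995, SE 0.18, adjusted p = 7.9e-05), and lower in co-transfer rat than in rat sites on day 9 (log2 change -0.88, SE 0.18, adjusted p = 0.00477). Nr4a3 read on day 9 79.8 and 104 in co-transfer rat sites, 421 and 323 in rat sites, and 154 and 154 in mouse sites. On day 7 Nr4a3 read 79.2, 8.6 and 53.0 in co-transfer rat sites, 50.3 and 10.7 in rat sites, and 268 and 359.6 in mouse sites. The rat sites of day 9 and the mouse sites of day 7 were again above all other arrays, here with the higher mean in the rat sites of day 9, and 4 of the 5 rat arrays of day 7 were below the pseudocount of 57.1. Its change was 1.01 on day 9 (SE 0.32, adjusted p = 0.0376) and -2.11 on day 7 (SE 0.32, adjusted p = 0.00138). The brightest probe set of Nr4a2 varied from 66.0 to 489.0 between the 3 co-transfer rat arrays of day 7 alone, and by it Nr4a2 was called in 0 of the 9 comparisons. Its other tested probe set was called lower in rat than in mouse sites on day 7 (log2 change -0.54, SE 0.17, adjusted p = 0.0451).

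The KLF genes encode Krüppel-like zinc finger factors. By its brightest probe set, none of the 3 was called between rat and mouse sites on day 7. Klf2, known from endothelial cells, read on day 9 929 and 979 in co-transfer rat sites, 449 and 609.9 in rat sites, and 796 and 775 in mouse sites. On day 7 Klf2 read 674, 593 and 680.3 in co-transfer rat sites, 669 and 780.2 in rat sites, and 551 and 532 in mouse sites. On day 9 the rat arrays were the lowest and the co-transfer rat arrays the highest, with no overlap. Klf2 was lower in rat than in mouse sites of day 9 (log2 change -0.54, SE 0.14, adjusted p = 0.0137) and higher in co-transfer rat than in rat sites (log2 change 0.80, SE 0.14, adjusted p = 0.00143). Klf4, a factor of epithelial differentiation, read on day 9 4372 and 3875 in co-transfer rat sites, 4358 and 4749 in rat sites, and 3811 and 3042 in mouse sites. On day 7 Klf4 read 2708, 3077 and 2983 in co-transfer rat sites, 3104 and 3467 in rat sites, and 2804 and 2964 in mouse sites. Rat sites of day 9 were called above mouse sites (log2 change 0.41, SE 0.13, adjusted p = 0.0352), with the co-transfer rat arrays overlapping the rat ones. The other Klf4 probe set was not called there (0.25) and was lower in co-transfer rat than in rat sites of day 9 (log2 change -0.45, SE 0.13, adjusted p = 0.0233). Klf6 read on day 9 2368 and 2350.5 in co-transfer rat sites, 2301 and 2313 in rat sites, and 1952 and 1825 in mouse sites. On day 7 Klf6 read 1282, 1536 and 1324 in co-transfer rat sites, 1369.6 and 1534 in rat sites, and 1755 and 1877 in mouse sites. It was higher on day 9 than on day 7 in rat sites (log2 change 0.65, SE 0.11, adjusted p = 0.00113) and in co-transfer rat sites (log2 change 0.75, SE 0.10, adjusted p = 0.000448). Dimmer Klf6 probe sets were called lower in rat than in mouse sites on day 7, at -1.43 (SE 0.19, adjusted p = 0.000565) and -0.54 (SE 0.15, adjusted p = 0.0289). A further one was at -0.72 and the brightest at -0.31, neither of them called.

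The DUSP genes encode phosphatases that remove the activating phosphates of MAP kinases and are themselves induced by those kinases. Dusp1, a nuclear phosphatase acting on p38 and JNK, read on day 9 1136 and 1114 in co-transfer rat sites, 2049.5 and 1886 in rat sites, and 1440.3 and 1060.3 in mouse sites. On day 7 Dusp1 read 763, 662 and 645 in co-transfer rat sites, 805 and 735 in rat sites, and 2853 and 2679 in mouse sites. Both mouse arrays of day 7 were above all others, and rat sites of day 9 came next. Dusp1 was higher in rat than in mouse sites on day 9 (log2 change 0.65, SE 0.14, adjusted p = 0.00623), lower on day 7 (log2 change -1.77, SE 0.14, adjusted p = 3.2e-05), and lower in co-transfer rat than in rat sites on day 9 (log2 change -0.78, SE 0.14, adjusted p = 0.00207).

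Dusp6, a cytoplasmic phosphatase specific to ERK, peaked in the rat sites of day 9. On day 9 Dusp6 read 760.0 and 716 in co-transfer rat sites, 2236 and 2028 in rat sites, and 539 and 569 in mouse sites. On day 7 Dusp6 read 634, 718 and 545 in co-transfer rat sites, 787 and 876 in rat sites, and 1338 and 1424 in mouse sites. The groups did not overlap on either day. The rat against mouse change was 1.84 on day 9 (SE 0.12, adjusted p = 3.04e-06), the largest rise of the set on that day, and -0.70 on day 7 (SE 0.12, adjusted p = 0.00329). Co-transfer rat sites of day 9 were below rat sites by a log2 change of -1.46 (SE 0.12, adjusted p = 1.44e-05).

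Dusp5, a nuclear phosphatase specific to ERK, was dim. On day 9 Dusp5 read 93.7 and 67.9 in co-transfer rat sites, 176 and 501 in rat sites, and 128 and 95.6 in mouse sites. On day 7 Dusp5 read 38.6, 27.3 and 54.6 in co-transfer rat sites, 30 and 30.8 in rat sites, and 266 and 286 in mouse sites. All 5 arrays of rat sites of day 7 were below the pseudocount, and the rat arrays of day 9 differed from each other by more than any other pair of Dusp5 replicates. Its change was 1.10 on day 9 (SE 0.32, adjusted p = 0.0264) and -1.93 on day 7 (SE 0.32, adjusted p = 0.00225). Dusp2, a nuclear phosphatase best known from immune cells, read on day 9 299.6 and 297 in co-transfer rat sites, 314 and 282 in rat sites, and 351 and 460.2 in mouse sites. On day 7 Dusp2 read 332, 327 and 329 in co-transfer rat sites, 328 and 232 in rat sites, and 392 and 443 in mouse sites. It was called in 1 of the 9 comparisons, rat against mouse sites of day 7 (log2 change -0.51, SE 0.15, adjusted p = 0.0357), and that call was lost without any 1 of 3 arrays.

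**Figure D5:**
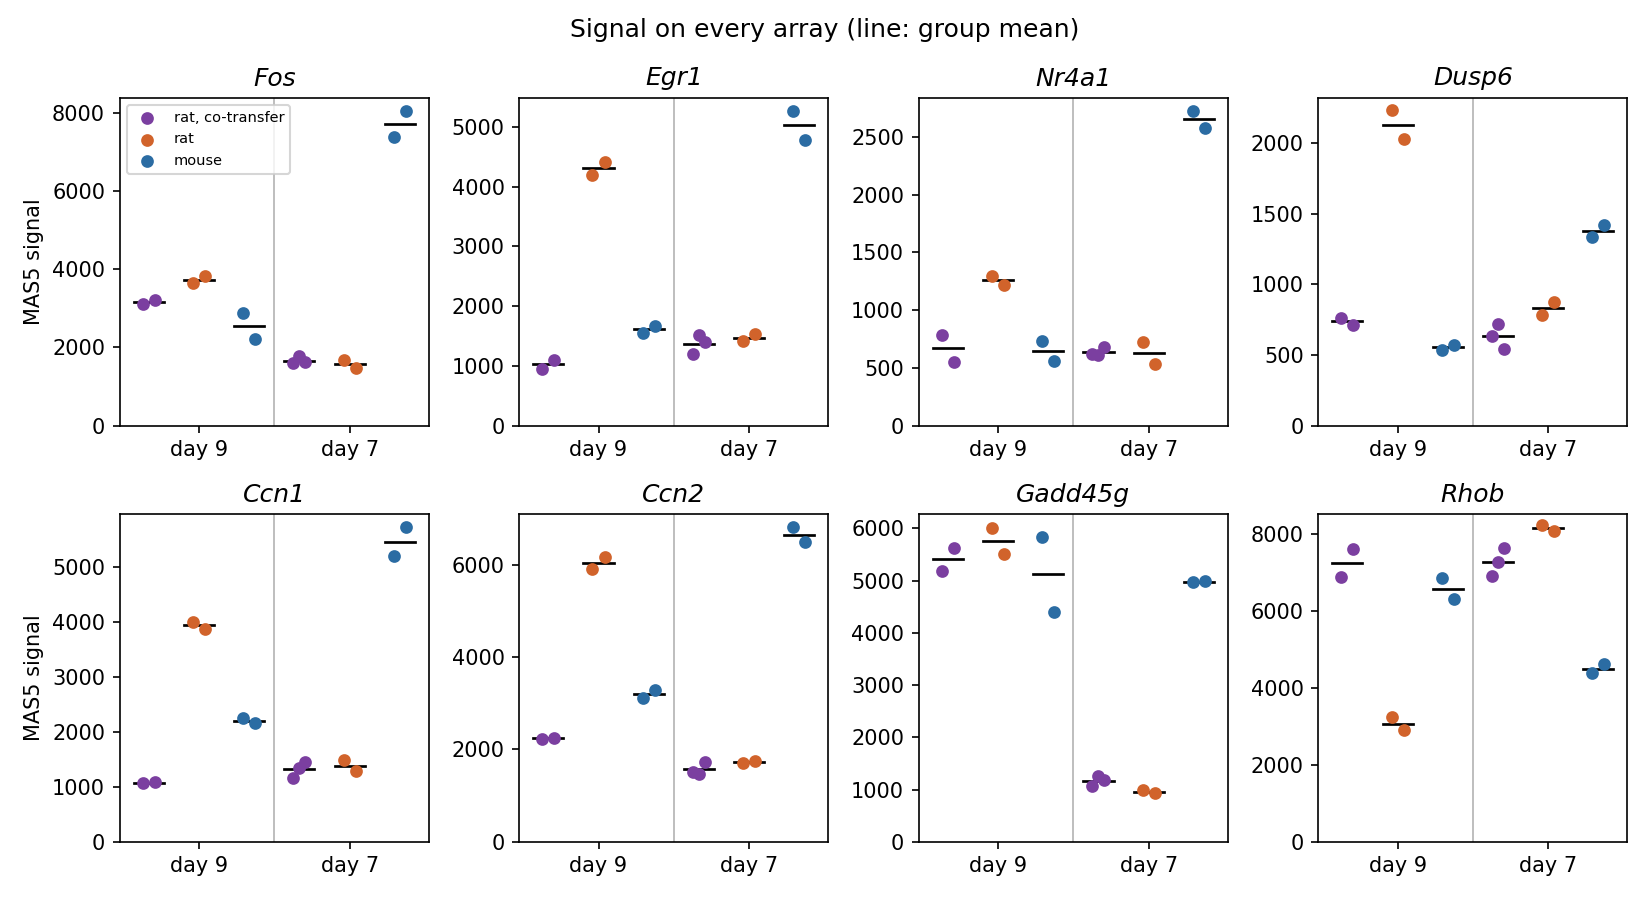
MAS5 signal on every array for Fos, Egr1, Nr4a1, Dusp6, Ccn1, Ccn2, Gadd45g and Rhob, with points for arrays, a line for each group mean, day 9 left of the line and day 7 right of it. In Fos, Egr1, Nr4a1, Ccn1 and Ccn2 the mouse sites of day 7 were highest, Dusp6 was highest in rat sites of day 9, Gadd45g was low in both groups of rat sites of day 7, and Rhob ran against the rest.

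Ccn1 and Ccn2, also called CYR61 and CTGF, encode secreted matrix-associated proteins of growth factor and mechanical responses. Ccn1 read on day 9 1073 and 1085 in co-transfer rat sites, 3998 and 3872 in rat sites, and 2245 and 2159 in mouse sites. On day 7 Ccn1 read 1155, 1352 and 1453 in co-transfer rat sites, 1498 and 1279.9 in rat sites, and 5188 and 5723 in mouse sites. On day 9 rat sites were highest and co-transfer rat sites lowest, with no overlap between groups. Ccn1 was higher in rat than in mouse sites on day 9 (log2 change 0.82, SE 0.12, adjusted p = 0.00062) and lower on day 7 (log2 change -1.93, SE 0.12, adjusted p = 8.47e-06). Co-transfer rat sites of day 9 were lower than rat sites (log2 change -1.81, SE 0.12, adjusted p = 2.64e-06) and than mouse sites (log2 change -0.99, SE 0.12, adjusted p = 0.00103). All 4 tested Ccn1 probe sets gave called differences of these signs for rat against mouse sites on both days and for co-transfer rat against rat sites on day 9. For co-transfer rat against mouse sites of day 9 the dimmer ones stood at -1.31 (adjusted p = 0.000105), -0.30 (adjusted p = 0.368) and -0.37 (adjusted p = 0.204). Only the first of these was called.

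Ccn2 read on day 9 2236 and 2255 in co-transfer rat sites, 5893 and 6173 in rat sites, and 3123 and 3282 in mouse sites. On day 7 Ccn2 read 1502, 1473 and 1736 in co-transfer rat sites, 1708 and 1756 in rat sites, and 6821 and 6477 in mouse sites. The groups of day 9 stood in the same order as for Ccn1. Its rat against mouse change was 0.90 on day 9 (SE 0.10, adjusted p = 8.24e-05) and -1.91 on day 7 (SE 0.10, adjusted p = 3.2e-06), and co-transfer rat sites of day 9 were at -1.40 against rat sites (SE 0.10, adjusted p = 3.69e-06).

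The Gadd45 genes encode small stress-induced proteins that bind MAP kinase kinase kinases, and they differed from each other. Gadd45a read on day 9 622 and 709 in co-transfer rat sites, 1429.8 and 1493 in rat sites, and 573 and 523 in mouse sites. On day 7 Gadd45a read 644, 768 and 940.2 in co-transfer rat sites, 757 and 750.2 in rat sites, and 2278 and 1990.4 in mouse sites. It followed Egr1 between rat and mouse sites, with 1.33 on day 9 (SE 0.15, adjusted p = 0.000118) and -1.43 on day 7 (SE 0.15, adjusted p = 0.000179). Gadd45b read on day 9 654 and 787 in co-transfer rat sites, 748 and 1001 in rat sites, and 1063 and 1463 in mouse sites. On day 7 Gadd45b read 948, 802 and 684 in co-transfer rat sites, 694 and 554 in rat sites, and 2283 and 2088 in mouse sites. It was not called between rat and mouse sites on day 9 (-0.50) and was lower in rat sites on day 7 (log2 change -1.73, SE 0.20, adjusted p = 0.000332). The other tested Gadd45b probe set was at 0.17 on day 9, not called, and was called lower on day 7 (-1.66). In rat sites it was called higher on day 9 than on day 7 (0.50, SE 0.15, adjusted p = 0.0278), where the brightest was not called (0.45). Gadd45g read on day 9 5190.2 and 5623 in co-transfer rat sites, 6015 and 5509 in rat sites, and 5842 and 4398 in mouse sites. On day 7 Gadd45g read 1071, 1268 and 1185 in co-transfer rat sites, 988 and 940.3 in rat sites, and 4964 and 4999 in mouse sites. The 5 arrays of rat sites of day 7 were far below the other 8, which overlapped. Gadd45g had the largest fall of the set in rat against mouse sites of day 7 (log2 change -2.30, SE 0.14, adjusted p = 6.11e-06) and no called difference between the groups of day 9. It was higher on day 9 than on day 7 in rat sites (log2 change 2.51, SE 0.14, adjusted p = 6.8e-07) and in co-transfer rat sites (log2 change 2.15, SE 0.12, adjusted p = 2.69e-06), and was not called in mouse sites at 0.02 (adjusted p = 0.895).

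Atf3, a stress-induced factor of the ATF and CREB family, read on day 9 451 and 382 in co-transfer rat sites, 977 and 997 in rat sites, and 407 and 697 in mouse sites. On day 7 Atf3 read 291, 204 and 112 in co-transfer rat sites, 233 and 289.8 in rat sites, and 681 and 495 in mouse sites. Its replicates were spread widely, and the rat against mouse change was not called on day 9 (log2 change 0.82, SE 0.32, adjusted p = 0.0797) and was called on day 7 (log2 change -1.01, SE 0.32, adjusted p = 0.0451). Btg2, an antiproliferative target of p53, read on day 9 929 and 919 in co-transfer rat sites, 1507 and 1589 in rat sites, and 806 and 876 in mouse sites. On day 7 Btg2 read 758, 752 and 890.3 in co-transfer rat sites, 841 and 837 in rat sites, and 1753 and 1924 in mouse sites. Zfp36l1, which promotes decay of messenger RNAs with AU-rich elements, read on day 9 3931 and 4244 in co-transfer rat sites, 7416 and 8357 in rat sites, and 3629 and 3793 in mouse sites. On day 7 Zfp36l1 read 4640.3, 5066 and 4752 in co-transfer rat sites, 4766 and 5285 in rat sites, and 8277 and 8081 in mouse sites. In both genes the mouse arrays of day 7 and the rat arrays of day 9 were above all others of their day. The rat against mouse changes on day 9 and day 7 were 0.84 and -1.08 for Btg2 (SE 0.10 each, adjusted p = 0.000199 and 0.000101) and 1.07 and -0.70 for Zfp36l1 (SE 0.10 each, adjusted p = 2.73e-05 and 0.000955). Against mouse sites of day 9, co-transfer rat sites were called higher by the second Zfp36l1 probe set (0.65, SE 0.12, adjusted p = 0.0122) and not by the brightest (0.14). In rat against mouse sites, the second Btg2 probe set was at 0.30 on day 9 and not called. Ier2, a short-lived nuclear protein, moved likewise, at 0.68 and -0.92 (SE 0.13 each, adjusted p = 0.00344 and 0.00103).

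Rhob, Myc and Per1 moved against most of the set. Rhob, a small GTPase of endosomes and the cytoskeleton, read on day 9 6869.7 and 7608 in co-transfer rat sites, 3243 and 2898 in rat sites, and 6839 and 6296 in mouse sites. On day 7 Rhob read 6891, 7265 and 7643 in co-transfer rat sites, 8239 and 8075 in rat sites, and 4377 and 4617 in mouse sites. The rat sites of day 9 and the mouse sites of day 7 had the lowest 4 arrays. Rhob was lower in rat than in mouse sites on day 9 (log2 change -1.08, SE 0.10, adjusted p = 2.77e-05), higher on day 7 (log2 change 0.85, SE 0.10, adjusted p = 0.000335), and higher in co-transfer rat than in rat sites on day 9 (log2 change 1.22, SE 0.10, adjusted p = 1.18e-05). Myc, a growth-promoting transcription factor, read on day 9 944 and 914 in co-transfer rat sites, 754 and 805 in rat sites, and 872 and 907 in mouse sites. On day 7 Myc read 1373, 1603 and 1511 in co-transfer rat sites, 1472 and 1596 in rat sites, and 712 and 693 in mouse sites. All 5 arrays of rat sites of day 7 were above the other 8. Rat against mouse sites were not called on day 9 (-0.18), and rat sites were higher on day 7 (log2 change 1.07, SE 0.10, adjusted p = 7.46e-05). Per1, a circadian clock gene, was at -0.52 on day 9 (adjusted p = 0.0726, not called) and 0.75 on day 7 (SE 0.20, adjusted p = 0.0204).

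Sik1, a salt-inducible kinase, and Csrnp1, a nuclear protein, were called between rat and mouse sites on day 9 and not on day 7, and the difference between the days was called for both. In rat against mouse sites of day 9 Sik1 was at -0.87 (SE 0.17, adjusted p = 0.003) and Csrnp1 at -0.43 (SE 0.11, adjusted p = 0.0128). Both were higher in co-transfer rat than in rat sites of day 9, with 1.10 (SE 0.17, adjusted p = 0.000682) and 0.48 (SE 0.11, adjusted p = 0.00628). Maff, a small MAF factor, was lower in rat than in mouse sites on day 7 at -0.90 (SE 0.17, adjusted p = 0.00374), and its day 9 groups did not differ by a called change. Ier5, a nuclear protein of the early response, was also lower on day 7 at -0.51 (SE 0.11, adjusted p = 0.00682). Zfp36, which encodes the RNA decay factor tristetraprolin, was called in 0 of the 9 comparisons, and its rat arrays of day 9 stood at 644 and 1488. Trib1, a pseudokinase gene, had 2 untested probe sets whose signals ran from 22.2 to 242.2, and the highest of these was in a mouse site of day 7.

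Other genes of the response were described through lists chosen beside the members. Of 40 tested further primary response genes, 6 were lower and 18 higher in rat than in mouse sites on day 9 (15% and 45%, against 16.4% and 17.5% of all tested genes), and 22 were lower and 5 higher on day 7 (55% and 12.5%, against 11.5% and 11.8% of all tested genes). The lower calls of day 9 and the higher ones of day 7 were thus near the share of all genes. Crem stands in this list and in the next. The largest falls of day 7 were in Ptgs2 (the inducible cyclooxygenase; -4.01, SE 0.22, adjusted p = 4.24e-06) and Edn1 (endothelin 1; -3.34, SE 0.17, adjusted p = 3e-06), and the largest rises in Rgs2 (1.73, SE 0.08, adjusted p = 2.08e-06) and Id1 (1.20, SE 0.12, adjusted p = 0.000132). On day 9 the largest rises were in Cxcl2 (a neutrophil chemokine; 3.32, SE 0.23, adjusted p = 3.86e-06) and Ereg (an EGF family ligand; 3.11, SE 0.12, adjusted p = 8.54e-08), and the largest falls in Rgs2 (-2.36, SE 0.08, adjusted p = 3.95e-08) and Plk3 (-2.18, SE 0.47, adjusted p = 0.00573). In co-transfer rat against rat sites of day 9, 14 were lower and 10 higher (35% and 25%, against 18.8% and 18.2% of all tested genes), led by Cxcl2 (-3.21, SE 0.23, adjusted p = 4.98e-06) and Ptgs2 (-2.88, SE 0.22, adjusted p = 6.42e-06) downward and Rgs2 (2.64, SE 0.08, adjusted p = 2.73e-08) and Plk3 (1.84, SE 0.47, adjusted p = 0.0129) upward. Rgs2, a regulator of G protein signalling, averaged 1583 ± 2.33 in rat sites and 8370.0 ± 397 in mouse sites of day 9, and 12237 ± 466 in rat sites and 3658 ± 18.1 in mouse sites of day 7 (SD, n = 2 each).

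Kinases, SRF partners and feedback inhibitors upstream of the set were split. Of 26 tested genes, 5 were lower and 7 higher in rat than in mouse sites on day 9 (19.2% and 26.9%), and 10 were lower and 3 higher on day 7 (38.5% and 11.5%). Set against the shares of all genes just given, the lower calls of day 9 and the higher ones of day 7 were near the background. On day 7 Crem, a cAMP-responsive repressor, was at -1.27, SE 0.12, adjusted p = 8.62e-05 and the feedback inhibitor Spry4 at -1.11, SE 0.21, adjusted p = 0.00453, while Mrtfb, an actin-regulated partner of SRF, was at 0.81, SE 0.13, adjusted p = 0.00202 and Map2k6, a kinase of p38, at 0.74, SE 0.24, adjusted p = 0.0472. The order was turned for the last pair on day 9, with Mrtfb at -0.84, SE 0.13, adjusted p = 0.000999 and Map2k6 at -1.28, SE 0.24, adjusted p = 0.00266. Elk4, a ternary complex factor, was at 0.92, SE 0.11, adjusted p = 0.000141 on day 9 and Spry2 at 0.66, SE 0.19, adjusted p = 0.0246. In co-transfer rat against rat sites of day 9, 7 were lower and 6 higher (26.9% and 23.1%, against 18.8% and 18.2% of all tested genes). Spry1 was at -0.81, SE 0.13, adjusted p = 0.0011, Spry2 at -0.81, SE 0.19, adjusted p = 0.00854, Map2k6 at 1.35, SE 0.24, adjusted p = 0.00179 and Mrtfb at 0.97, SE 0.13, adjusted p = 0.000367.

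Of 12 heat shock genes, 1 was lower and 7 higher in rat than in mouse sites on day 9 (8.33% and 58.3%, against 16.4% and 17.5% of all tested genes), and 2 were lower and 1 higher on day 7 (16.7% and 8.33%, against 11.5% and 11.8% of all tested genes), so the counts of day 7 were near the background. The inducible HSP70 gene Hspa1a averaged 5462 ± 555 in rat sites and 504 ± 46.4 in mouse sites of day 9, and 461 ± 0.919 in rat sites and 3487 ± 332 in mouse sites of day 7 (SD, n = 2 each). Its change was 3.30, SE 0.13, adjusted p = 1.02e-07 on day 9 and -2.77, SE 0.13, adjusted p = 2.26e-06 on day 7, and its near-identical copy Hspa1b, whose probes may read both, was at 1.90, SE 0.10, adjusted p = 5.82e-07 and -1.35, SE 0.10, adjusted p = 2.46e-05 on the same days. The cochaperone gene Bag3 ran the other way, at -1.08, SE 0.09, adjusted p = 1.01e-05 on day 9 and 0.28, SE 0.09, adjusted p = 0.0416 on day 7. In co-transfer rat against rat sites of day 9, 10 were lower and 1 higher (83.3% and 8.33%, against 18.8% and 18.2% of all tested genes). Hspa1a was at -2.92, SE 0.13, adjusted p = 2.14e-07, Hspa1b at -1.73, SE 0.10, adjusted p = 1.11e-06 and Bag3 at 1.58, SE 0.09, adjusted p = 7.31e-07.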

How the data were processed

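Whole implantation sites were profiled on 13 Affymetrix Mouse430_2 arrays in 6 groups. The deposited value table holds MAS5 signal intensities on a linear scale, with every array scaled to a trimmed mean of 500, per the submitters' processing notes and the values. The sources used here give no MAS5 version. Per the labels, about 100 mg of tissue gave about 8 µg of total RNA for biotin-labelled cRNA. The deposited scanner report files were used only for hybridisation and scanner records. Detection calls were not used, and the number of arrays limits the precision.

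Probe sets were named through the platform annotation: 34958 had 1 gene symbol, 932 several and 9211 none. Control probe sets (64) were left out. Testing was limited to probe sets over the 60th percentile of signals on 2 or more arrays, which left 22155 probe sets and 12010 genes, and genes high in 1 group can pass through that group. In R 4.3.3, limma 3.58.1 (lmFit and eBayes) was fitted to log2(signal + 57.1) over all 6 groups, where 57.1 is the 25th percentile of all signals. Benjamini-Hochberg adjustment ran over all tested probe sets within each comparison, with a threshold of 0.05. The fit was tested on simulated data. Comparisons were rat, co-transfer rat and mouse sites pairwise within a day, day 9 against day 7 within a kind, and the change of each pairwise difference between days.

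Every array's signal was given for members called between rat and mouse sites on either day with a log2 change of at least 1, and for AP1, EGR, NR4A, KLF and DUSP members called in any comparison. From each further list, the called genes with the largest rises and falls were named. The members and lists were chosen with earlier results of these data known. Alternatives were pseudocounts of 16 and 200, no filter or one at the 75th percentile, quantile normalization, array weights, the arrays of the compared groups alone, the hybridisation date as a block, the replicate number as a block, another probe set per gene, leaving out probe sets shared between transcripts, and leaving out each array. Promoter sequences are from RefSeq, build GRCm38.p6. No genome was used. Figures were drawn with Python 3.11.15 and matplotlib 3.10.9.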

Additional observations from a re-analysis of the deposited data

Results flagged for a closer look

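The rat against mouse difference changed with the day, by limma's interaction test, for 30 of the 37 tested genes, each through its brightest probe set. Values are the day 9 difference minus the day 7 difference on the log2 scale. Dimmer probe sets of Egr3 (4.04), Fosl2 (1.47) and Jun (1.37), genes outside the 30, were also called. Among AP1 genes it was 2.80 for Fos, 1.15 for Fosb, 0.54 for Fosl1, 1.15 for Junb and 0.59 for Jund, with adjusted p from 2.42e-06 (Fos) to 0.035 (Fosl1). Fosl1 differed from the other 4 in that rat sites were lower on both days. Among EGR and NR4A genes it was 3.12 for Egr1, 0.98 for Egr2, 2.91 for Nr4a1 and 3.12 for Nr4a3. Among DUSP genes it was 2.42 for Dusp1, 3.03 for Dusp5 and 2.54 for Dusp6. The KLF genes split, with -0.92 for Klf2 and 0.60 for Klf6. Of the other genes, Ccn2 (2.81), Ccn1 (2.76), Gadd45a (2.76), Gadd45g (2.48), Btg2 (1.92), Atf3 (1.83), Zfp36l1 (1.77), Ier2 (1.60), Gadd45b (1.23), Maff (0.85) and Ier5 (0.52) moved upward. Rhob (-1.94), Per1 (-1.27), Myc (-1.24), Sik1 (-0.91) and Csrnp1 (-0.58) moved downward. The difference between co-transfer rat and mouse sites changed with the day for 24 genes, and that between co-transfer rat and rat sites for 16. With no filter on low values these counts were 16 and 11, and that of rat against mouse sites was 24. Groups of 2 or 3 arrays are too small for a test of single outlying arrays.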

How the results depend on the processing

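Of 361 gene results recomputed 5758 times, 5326 kept their direction and side of the threshold, 375 lost a call, 47 gained one and 10 turned direction. All 10 came from taking the probe set of highest variance, which for these genes was not the brightest: Egr3 then stood at -2.54 (co-transfer rat against mouse sites, day 7), -2.64 (rat against mouse, day 7) and -1.22 (co-transfer rat against rat, day 9), Btg2 at -0.80 (co-transfer rat against mouse, day 9) and Jun at -0.071 (co-transfer rat against rat, day 9). Fosl2 stood at -0.24 (day 9 against day 7, co-transfer rat sites), -0.13 and -0.58 (co-transfer rat against mouse and against rat, day 9), -0.51 (change of the co-transfer rat against rat difference with the day) and 0.27 (day 9 against day 7, rat sites). Counts of genes called moved by over 1.5 times in 3 comparisons. Rat against mouse sites of day 9 had 12 calls from their own arrays, in place of 19, with fewer arrays to estimate the spread. Co-transfer rat against mouse sites of day 9 had 2 with no filter and 2 from their own arrays, in place of 5, and from 2 to 7 with 1 array left out (2 without replicate 1 and 3 without replicate 2 of the co-transfer rat sites, 2 without replicate 2 of the mouse sites). Day 9 against day 7 in co-transfer rat sites had 11 to 18 with 1 array left out, the 11 without replicate 1 of day 9. The cause was not tested. Deviations from the group mean of same-numbered arrays of different groups had r from -0.02 to 0.09 over 20 pairs. In groups of 2 the deviations mirror each other, so pairs of replicate 1 and of replicate 2 repeat the same values. Whether the numbers pair samples cannot be told from this. With the replicate block, rat against mouse sites had 20 calls on day 9 and 26 on day 7, against 19 and 27 without it, co-transfer rat against rat sites of day 9 had 21 against 22, co-transfer rat against mouse sites 4 against 5 on day 9 and 28 against 29 on day 7, and the change of rat against mouse with the day 30 against 30. Dim members such as Dusp5 and Nr4a3 in rat sites of day 7 lie below the pseudocount, where differences are compressed.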
